A study of Arabidopsis thaliana with 2 samples.

Results

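UDP-glycosyltransferase (UGT) genes were examined in Arabidopsis thaliana siliques (whole fruits with their seeds) at 12 DAF, from the mutant rge1-1, named for retarded growth of embryo, and from wild-type Col-0. The 44 UGT genes were those probes with exactly 1 gene name whose current symbol begins with UGT and a digit, out of 8819 named genes and 21426 rows (genes and unnamed probes) in the table. Each had 1 probe, and the 44 genes fell into 12 families by the number after UGT. The gene table held 58 symbols of this form, so the account covers members with such a symbol and not the whole superfamily. Any UGT gene listed under another symbol, such as a locus code, was not counted among the 44. On each of the 2 arrays the mutant was labelled with Cy3 and the wild type with Cy5, and 0 arrays had the dyes swapped, so genotype and dye cannot be told apart. Plants of both genotypes received no treatment. The sources used here give neither the nature of the rge1-1 lesion nor the number of plants behind each RNA, and the arrays are not stated to come from separate plants. Any p-value therefore measures only the spread between these 2 arrays.

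The design asks how transcript levels in the mutant fruit compare with those in the wild-type fruit. RGE1, or ZHOUPI, is a bHLH transcription factor that acts in the endosperm. UGT enzymes transfer a sugar from a UDP-sugar to small molecules such as monolignols, flavonoids, hydroxycinnamic acids, salicylic acid, auxin, cytokinins and abscisic acid. The added sugar makes the molecule more soluble and usually less active, and lets the cell store it in the vacuole. In seeds and fruits, these enzymes are known for decorating the flavonoids of the seed coat and the sinapate esters of the embryo, and for holding hormones in inactive form.

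The deposited value is a log ratio of the channels, one per probe and array. Ratios are given here on the log2 scale, on the reading that the deposited logarithm has base 10. Neither this base nor the order of mutant and wild type in the ratio is stated, so plus and minus are signs as deposited and neither stands for a rise in the mutant. A 2-colour ratio holds no expression level, so whether a UGT gene was expressed at all in the siliques could not be read from it. The arrays were not centred on 0. Over all rows the median log2 ratio was 0.16 on replicate 1 and 0.02 on replicate 2, a shift that touches every sign below, and values relative to these medians are called centred. The SD over all rows was 0.53 on replicate 1 and 0.34 on replicate 2. Exact zeros were found for 386 probes on replicate 1 and 474 on replicate 2, and whether such a zero is a measured equal ratio is not stated.

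Of the 44 UGT genes, 2 stood clear of equal on both arrays, and these had opposite signs. UGT72E1, which glucosylates the precursor aldehydes of lignin, was the furthest positive member. UGT73C7, an enzyme reported to glucosylate p-coumaric and ferulic acid, was the furthest negative one. The other 42 lay within 1.5-fold of equal on at least 1 array, and 37 of the 44 had a mean within 0.3 of 0 on the log2 scale. Most rows of the table lay that near as well. The quartiles of the mean were -0.09 and 0.16 for UGT genes and -0.07 and 0.20 for all rows.

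The log2 ratio of UGT72E1 (AT3G50740) was 1.27 on replicate 1 and 1.59 on replicate 2. Its mean was 1.43 ± 0.23 (SD, n = 2), which is 2.69-fold from equal. Both arrays put it on the positive side, and its mean ranked 10 among the positive named genes. The log2 ratio of UGT73C7 (AT3G53160) was -1.32 on replicate 1 and -0.98 on replicate 2, with a mean of -1.15 ± 0.23 (SD, n = 2), or 2.22-fold. Both arrays put it on the negative side, and its mean ranked 110 among the negative named genes. For both genes the arrays differed by less than the distance of either value from 0.

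Neither ratio passed the test over all rows. With limma (Benjamini-Hochberg over 21426 rows), 0 of 44 UGT genes had an adjusted p under 0.05, which was also so for 0% of all rows, and UGT72E1 and UGT73C7 each had an adjusted p of 0.665. When rows with an exact zero were left out, limma called 55 of 20761 rows (0.265%) at that limit, still with 0 UGT genes among them. With the arrays also centred, limma called 0 of these 20761 rows, and UGT72E1 had an adjusted p of 0.466. Over the alternatives of scaling, zeros and moderation, the adjusted p by limma ran from 0.0565 to 0.808 for UGT72E1 and from 0.103 to 0.808 for UGT73C7. Their unadjusted limma p-values were 0.00245 and 0.0048, and they were the 2 UGT genes of 44 with an unadjusted p under 0.05, where 6.6% of all rows had one.

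Counted without a test, UGT72E1 and UGT73C7 were the 2 of 44 genes past 1.5-fold with 1 sign on both arrays. Over all rows 2.54% were that far from equal, 0.975% positive and 1.56% negative, and over named genes 2.56%. With 44 genes, 2 is too few to set the family apart from that background. At 2-fold the count was 1 of 44, UGT72E1, against 0.691% of all rows. UGT73C7 fell just short there, since replicate 2 gave 1.98-fold, and it passed once the arrays were centred. On single arrays 7 UGT genes were past 1.5-fold on replicate 1 and 3 on replicate 2, where the shares over all rows were 15.9% and 6.35%.

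**Figure D1:**
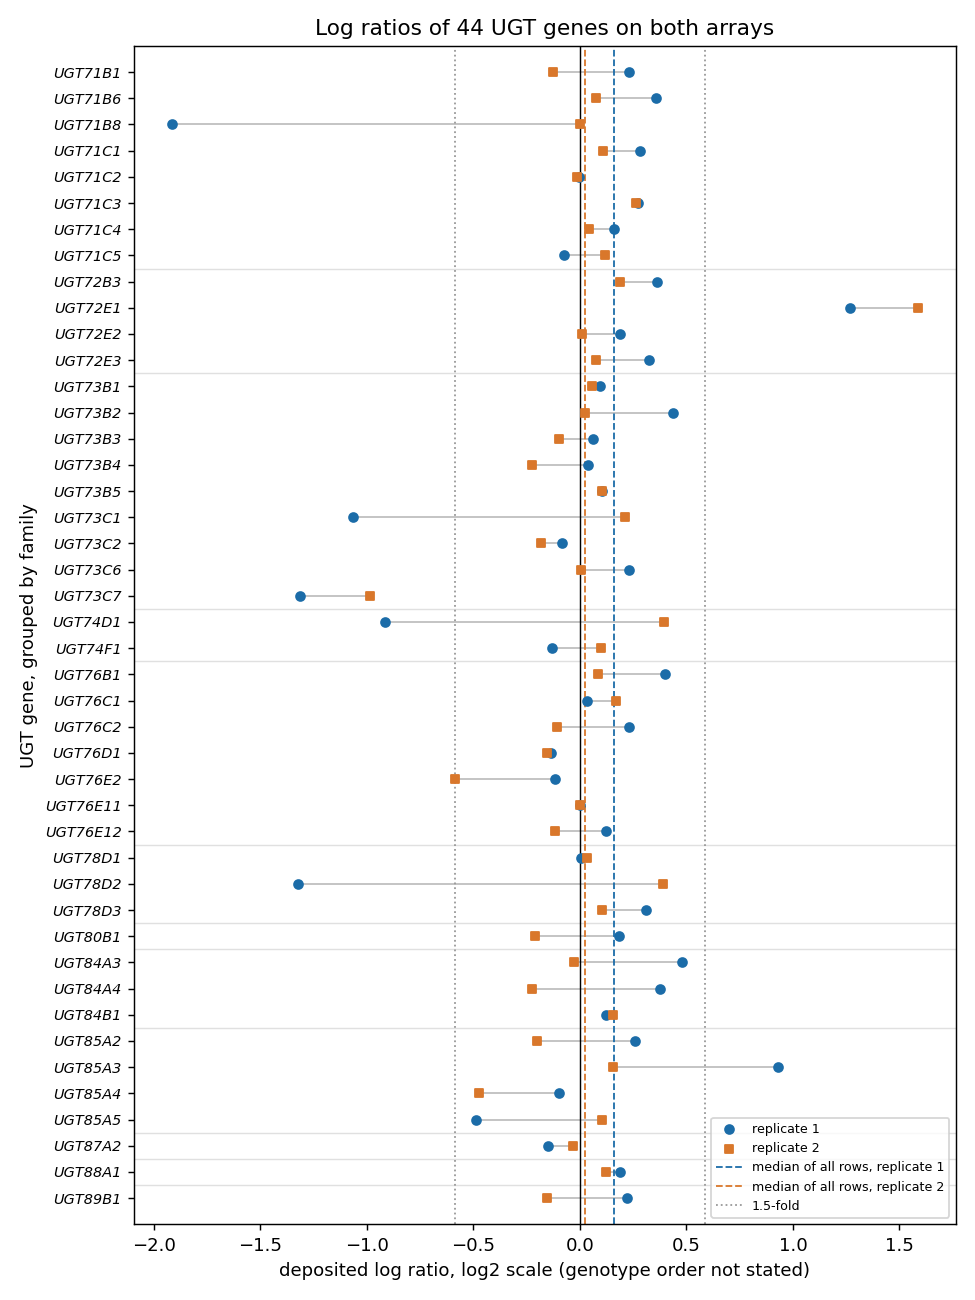
Each line across is 1 UGT gene, with its deposited log ratio on the log2 scale on replicate 1 (circle) and replicate 2 (square), dashed lines at the medians of all rows and dotted lines at 1.5-fold. UGT72E1 lies right of the dotted line and UGT73C7 left of it on both arrays, whereas UGT71B8, UGT73C1, UGT74D1 and UGT78D2 lie left of it on replicate 1 alone.

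The genes for lignin precursors lay in the UGT72 family, where the 4 of 4 members with a UGT symbol were positive on both arrays. Over all rows 42.5% were positive on both arrays, and with centring 3 of 4 were, against 30.6% of all rows. UGT72E1 stood apart from its nearest relatives. UGT72E2, which glucosylates the lignin alcohols in roots, had log2 ratios of 0.19 and 0.0098 on replicates 1 and 2. UGT72E3, which acts on sinapyl alcohol, had 0.32 and 0.08. The log2 ratio of UGT72E1 exceeded that of UGT72E2 by 1.08 on replicate 1 and 1.58 on replicate 2, and that of UGT72E3 by 0.95 and 1.51. These differences have 1 sign on both arrays, but an exact permutation test over 2 arrays cannot go below p = 0.5, so none was run. UGT72B3, a relative of the xenobiotic glucosyltransferase UGT72B1, was 0.36 on replicate 1 and 0.19 on replicate 2 (mean 0.27 ± 0.12, SD, n = 2).

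Few other genes of lignin precursor metabolism carried a name. Of 22 listed genes of phenylpropanoid and monolignol synthesis 2 were named, and 0 of these were past 1.5-fold with 1 sign. CCR2, a cinnamoyl-CoA reductase gene, had log2 ratios of -0.02 and -0.05 on replicates 1 and 2, and HCT, a hydroxycinnamoyl transferase gene, 0.17 and -0.07. Both lay near equal on both arrays. Among the 14 named beta-glucosidases, enzymes that take sugars off again, both arrays were positive for 7 and negative for 2. These shares were near the 42.5% and 16.6% of all rows. None of the 14 was past 1.5-fold with 1 sign, as 2.54% of all rows were. BGLU45, which hydrolyses monolignol glucosides, was at 1.18 on replicate 1 and 0.25 on replicate 2, with a mean of 0.71 ± 0.66 (SD, n = 2). BGLU40 was at 0.46 and 0.49.

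UGT73 was the largest family, with 9 named genes in 2 subfamilies. In UGT73C the 4 genes were spread widely. UGT73C7 lay below UGT73C6 by 1.55 on replicate 1 and 0.99 on replicate 2, and below UGT73C2 by 1.23 and 0.80. UGT73C6, known for glycosylating flavonols and brassinosteroids, had log2 ratios of 0.23 and 0.00317, and UGT73C2 had -0.08 and -0.18. UGT73C1, which can glucosylate cytokinins in vitro, was at -1.06 on replicate 1 and 0.21 on replicate 2. Its arrays therefore had opposite signs and differed by 1.27, so its mean of -0.43 ± 0.90 (SD, n = 2) does not place it on either side.

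The 5 UGT73B genes kept close to equal. UGT73B5, a gene known from redox and pathogen responses, was at 0.10 on both arrays. UGT73B2, a flavonoid glucosyltransferase gene, was at 0.44 on replicate 1 and 0.02 on replicate 2. UGT73B1 was positive on both arrays, while UGT73B3 and UGT73B4 were positive on replicate 1 and negative on replicate 2, and the means of these 3 ran from -0.09 to 0.07. The median log2 ratio of UGT73B was 0.07, or -0.02 with centring, and that of UGT73C was -0.28, or -0.37 with centring.

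Genes that act on flavonoids are found mainly in UGT78. UGT78D2, which attaches glucose to flavonols and anthocyanidins, was at -1.33 on replicate 1 and 0.39 on replicate 2, a difference between arrays of 1.71. UGT78D1, a flavonol rhamnosyltransferase gene, was at 0.00512 and 0.03. UGT78D3, a flavonol arabinosyltransferase gene, was at 0.31 and 0.10 (mean 0.21 ± 0.15, SD, n = 2). Only the first of these genes had a large ratio, and only on replicate 1. UGT80B1, a sterol glucosyltransferase gene also known as TRANSPARENT TESTA 15 for its pale seed coat mutant, was at 0.19 and -0.21. UGT88A1 and UGT89B1, which glucosylate phenolic compounds in vitro, were at 0.19 and 0.12 and at 0.22 and -0.15. Of 23 listed genes of flavonoid synthesis 2 were named, with DFR at -0.09 and 0.27 and BAN at 0.29 and -0.19. Both had opposite signs on the arrays.

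Enzymes that make glucose esters of hydroxycinnamic acids, the path to sinapate esters in seeds, were represented by UGT84A3 and UGT84A4. UGT84A3 had log2 ratios of 0.48 on replicate 1 and -0.03 on replicate 2, and UGT84A4 had 0.38 and -0.23. Both were positive on the first array and negative on the other. UGT84B1, which esterifies the auxin indole-3-acetic acid, was at 0.12 and 0.16 (mean 0.14 ± 0.02, SD, n = 2), and the UGT84 median was 0.14, or 0.05 with centring.

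Hormone-conjugating members lay near equal apart from single-array values. UGT71B6 and UGT71C5, both abscisic acid glucosyltransferase genes, were at 0.36 and 0.08 and at -0.07 and 0.12 on replicates 1 and 2. UGT74F1, a salicylic acid glucosyltransferase gene, was at -0.13 and 0.10. UGT74D1, which acts on auxins, was at -0.91 on replicate 1 and 0.40 on replicate 2. Of these, UGT74D1 alone had a ratio past 1.5-fold, and its signs were opposite.

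The cytokinin N-glucosyltransferase genes UGT76C1 and UGT76C2 had log2 ratios of 0.03 and 0.17 and of 0.23 and -0.11. UGT76B1, an enzyme gene of immune signalling that acts on isoleucic and salicylic acid, was at 0.40 and 0.08. None of them was past 1.5-fold on either array. Among 5 named genes of 30 listed for hormone synthesis and turnover, 0 were past 1.5-fold with 1 sign. YUC4, an auxin synthesis gene, was at -0.47 and -0.37, and AT1G14130 (DAO1), an auxin oxidase gene, at 0.57 and 0.03. Of 18 glucosinolate genes 1 was named, BCAT4, an aminotransferase gene, at 0.24 and 0.03, and of 11 listed genes of UDP-sugar supply 0 were named.

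Of the 7 UGT76 genes, 2 were negative on both arrays, where 16.6% of all rows were. UGT76D1, which glucosylates dihydroxybenzoic acids, was at -0.13 and -0.16 (mean -0.15 ± 0.01, SD, n = 2). UGT76E2 was at -0.12 on replicate 1 and -0.59 on replicate 2. UGT76E12 had opposite signs, at 0.12 and -0.12, and UGT76E11 was listed at exactly 0 on both arrays. With centring, 4 of 7 UGT76 genes were negative on both arrays, against 30.6% of all rows, but UGT76E11 is among the 4 only because its listed zeros lie under the array medians.

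In UGT71, 4 of 8 genes were positive and 1 negative on both arrays, where 42.5% and 16.6% of all rows were. With centring 3 were positive and 2 negative, where all rows had 30.6% each way. These counts do not set the family apart. UGT71C3, a methyl salicylate glucosyltransferase gene, was the most even of the larger ratios, at 0.27 and 0.26 (mean 0.27 ± 0.0054, SD, n = 2). UGT71C1 was at 0.28 and 0.11, and UGT71C4 at 0.16 and 0.04. UGT71C2 lay at equal within 0.02 on both arrays, and UGT71B1 was at 0.23 and -0.13. UGT71B8 had the most negative single value among the 44 UGT genes, -1.92 on replicate 1, while replicate 2 listed exactly 0. Its mean of -0.96 ± 1.36 (SD, n = 2) therefore rests on replicate 1 alone.

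A zero beside a strongly negative ratio was a common pairing on these arrays. Of 279 probes at exactly 0 on replicate 2 and not on replicate 1, 169 (60.6%) were negative past 1.5-fold on replicate 1, against 8.06% of the probes with no zero. UGT71B8 is one of these 169. What part the zeros have in such ratios was not tested.

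UGT85 showed the second largest positive mean after UGT72E1. UGT85A3 was at 0.93 on replicate 1 and 0.16 on replicate 2 (mean 0.54 ± 0.55, SD, n = 2), positive on both arrays but past 1.5-fold on the first alone. UGT85A4 was at -0.10 and -0.47, UGT85A5, a gene linked to salt tolerance, at -0.49 and 0.11, and UGT85A2 at 0.26 and -0.20. UGT87A2, known for an effect on flowering time, was at -0.15 and -0.03. Of these 5 genes UGT85A3 was positive, UGT85A4 and UGT87A2 negative and the remaining ones opposite in sign between the arrays.

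**Figure D2:**
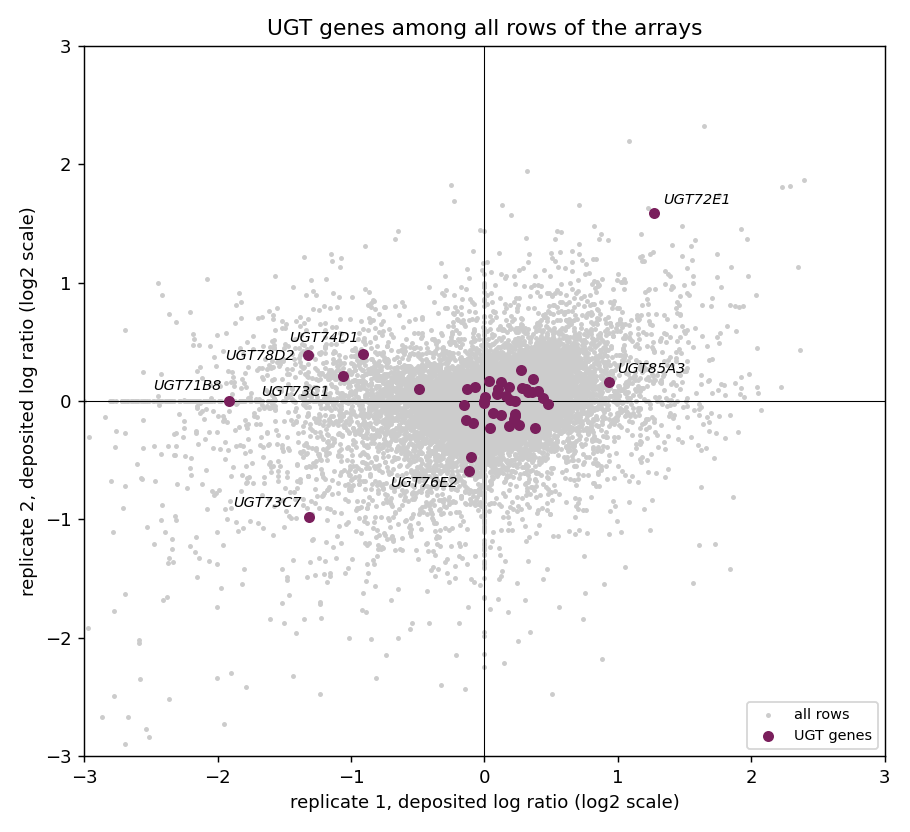
Each point is a row of the table, with its deposited log ratio (log2 scale) on replicate 1 across and on replicate 2 up, and UGT genes in dark purple over all rows in grey. UGT72E1 lies in the upper right and UGT73C7 in the lower left, 4 labelled genes lie far left near or above 0 on replicate 2, and 27 rows beyond 3 on either axis are not shown.

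Across the 44 genes, which are not independent replicates, the Pearson correlation of the arrays was 0.30 and the Spearman correlation 0.13. All rows had 0.33 and 0.27. Without UGT72E1 and UGT73C7 the UGT values were -0.20 and 0.0099, so the Pearson value of 0.30 rests on these 2 genes. Of 5 UGT genes negative past 1.5-fold on replicate 1, 1 was also negative on replicate 2, which was so for 51.5% of such rows over the whole table.

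As deposited, the signs of the 44 genes were divided much as those of the whole table. On both arrays 19 were positive and 7 negative, 16 had opposite signs and 2 had an exact zero. This is 43.2% positive and 15.9% negative, against 42.5% and 16.6% of all rows, of which 37.8% had opposite signs. With centring, 11 of the 44 were positive and 12 negative on both arrays, against 30.6% of all rows each way. Opposite signs then held for 21 of the 44 and for 8299 of 21426 rows. The median log2 ratio was 0.04 for UGT genes and 0.08 for all rows, and with centring it was -0.05 for UGT genes and -0.0082 for all rows. On single arrays the UGT median was 0.12 on replicate 1 and 0.03 on replicate 2, so the family as a whole followed the offset of each array. Centring turned the sign of 9 of the 44 means and of 0 of the 12 genes with the firmest ratios of 1 sign. That 0 follows from how the 12 were chosen, since each of their means lay further from 0 than the shift. Those 12 were UGT72E1, UGT73C7, UGT71C3, UGT72B3, UGT85A3, UGT76D1, UGT84B1, UGT88A1, UGT76E2, UGT71C1, UGT78D3 and UGT73B5, ordered by whichever absolute ratio was smaller, and 10 of them kept 1 sign on both centred arrays.

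Among the 7 families with at least 3 named genes, which hold 38 of the 44 genes, the medians were close together. UGT72 had the highest median log2 ratio, 0.24 (0.34 on replicate 1 and 0.13 on replicate 2), followed by UGT84 at 0.14 (0.38 and -0.03) and UGT71 at 0.08 (0.20 and 0.06). UGT78 was at 0.02 (0.00512 and 0.10) and UGT76 at 0.00116 (0.03 and -0.11). UGT73 was at -0.02 (0.06 and 0.00317) and UGT85 at -0.08 (0.08 and -0.05). With centring the medians of UGT71, UGT78 and UGT76 turned negative, at -0.02, -0.07 and -0.09, while UGT72 stayed at 0.15 and UGT84 at 0.05.

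Highest and lowest family median differed by 0.32 on the log2 scale, and that range was 0.37 on replicate 1 and 0.24 on replicate 2. UGT72 and UGT71 were above the median of all rows on both arrays. UGT84 was above it on replicate 1 and below it on replicate 2, and UGT78 the reverse, so the order of these families differed between the arrays. The families hold few genes each, and with 2 arrays their difference was not tested. The medians are a description.

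**Figure D3:**
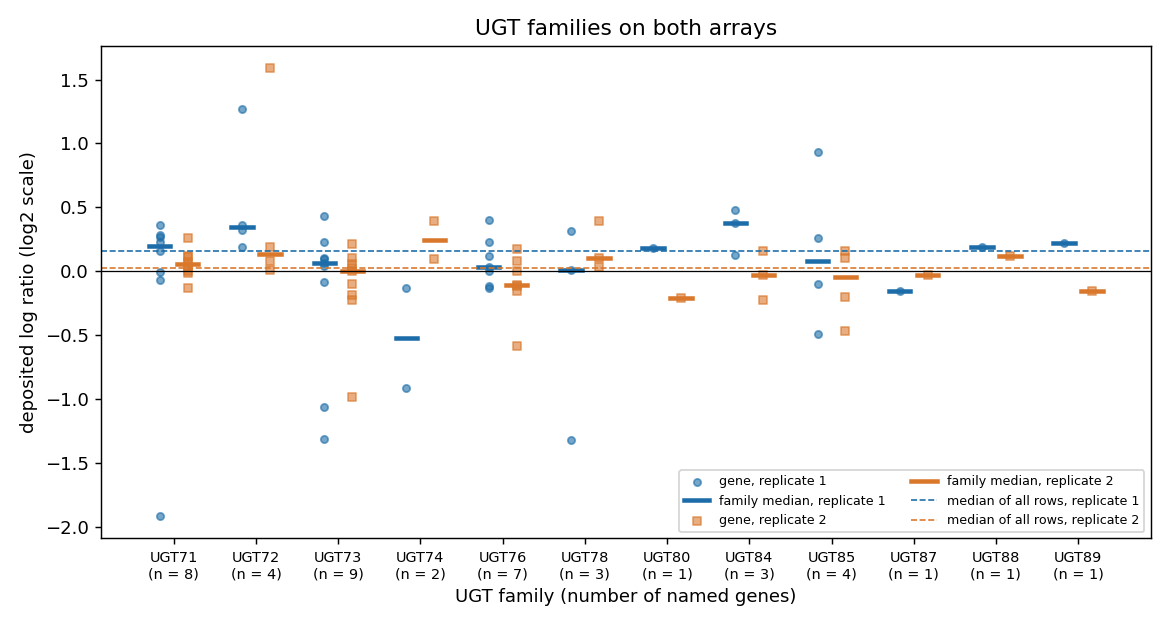
UGT families run across, with the number of named genes, and the deposited log ratio (log2 scale) runs up. Points are genes, thick bars are family medians on replicate 1 (left of each pair) and replicate 2 (right), and dashed lines are the medians of all rows. The UGT72 medians of 0.34 and 0.13 each lie above the dashed line of their own array. On replicate 1, UGT71B8, UGT73C1, UGT73C7 and UGT78D2 lie far below the medians of their families.

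Many UGT genes stand side by side in the genome as repeated copies. By the order of protein-coding genes in the TAIR10.1 gene table, 27 of the 44 genes fell into 11 groups of neighbours no more than 3 genes apart. UGT72E1 and UGT73C7 were in none of these groups. Several groups were even: UGT71C5, UGT71C4 and UGT71C3 had means within 0.24 of each other, UGT73B3, UGT73B2 and UGT73B1 within 0.25, UGT84A3 and UGT84A4 within 0.15, and UGT76C2 and UGT76C1 within 0.04. On replicate 2 the neighbours in every one of the 11 groups lay within 0.40 of each other. The 42 UGT genes other than UGT72E1 and UGT73C7 had an SD of only 0.19 on that array. Whether neighbours are more even than other UGT genes was not tested.

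Of the 11 groups, 4 spanned more than 1 on the log2 scale, each on replicate 1 only. UGT71B8 lay 2.28 below UGT71B6 on replicate 1, while the group of 3 spanned 0.20 on replicate 2. UGT78D2 lay 1.64 below UGT78D3 on replicate 1 and 0.28 above it on replicate 2. The group of UGT85A2, UGT85A5 and UGT85A3 spanned 1.42 on replicate 1 and 0.36 on replicate 2, and that of UGT73C1, UGT73C2 and UGT73C6 spanned 1.29 and 0.40. Probe sequences were not used here, so how far a probe also binds the transcript of a neighbouring copy was not tested, and ratios of such neighbours may not be separate measurements.

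**Figure D4:**
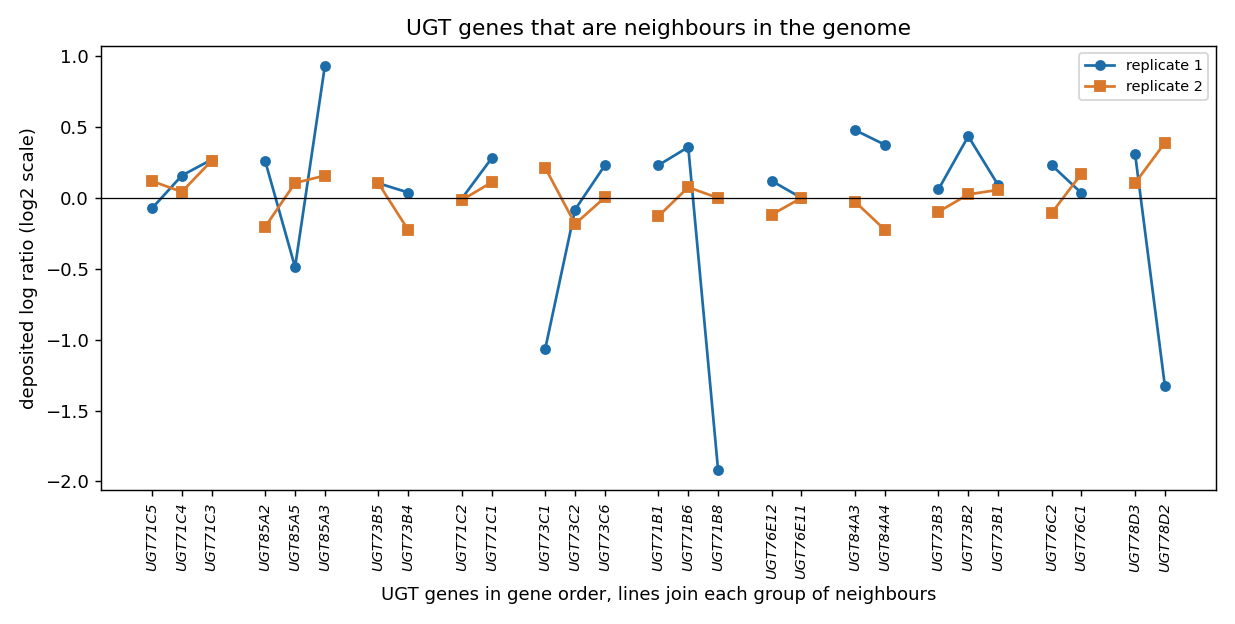
UGT genes are drawn in gene order within the 11 groups of neighbours, with the deposited log ratio (log2 scale) on replicate 1 (circles) and replicate 2 (squares), and lines join genes of a group. Replicate 2 stays within 0.40 inside each group, and the drops at UGT73C1, UGT71B8 and UGT78D2 are on replicate 1 alone.

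Within subfamilies, 9 of 46 pairs of paralogs had mean log2 ratios more than 0.7 apart, and in 8 of the 9 the difference had 1 sign on both arrays. Of these pairs 2 involved UGT72E1, 3 UGT73C7, 2 UGT71B8 and 2 UGT85A3, so they share members. Pairs picked for a large mean over these 2 arrays tend to have 1 sign on both. The 8 of 9 is therefore no separate support. In the pairs with UGT71B8 and in that of UGT85A3 with UGT85A5 the difference was under 0.2 on replicate 2, so they rest on replicate 1. Those with UGT72E1 differed by at least 0.95 on each array and those of UGT73C7 with UGT73C2 and UGT73C6 by at least 0.80.

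Other enzyme families of small-molecule metabolism had fewer named genes. Among 16 cytochrome P450 genes, whose products often supply the hydroxyl group that a UGT glycosylates, 0 were past 1.5-fold with 1 sign on both arrays, and the median log2 ratio was 0.05. The largest ratios of 1 sign on both arrays were those of CYP71B35, at 0.78 and 0.45, and CYP71B37, at 0.66 and 0.36. Among 13 glutathione S-transferases, enzymes of detoxification, it was also 0, with a median of -0.02, GSTU20 at 0.53 and 0.36 and GSTL3 at -0.42 and -0.17. The beta-glucosidases had a median of 0.11. Set beside 2.54% of all rows, counts of 0 in 13 to 16 genes and 2 in 44 do not separate these families.

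Markers of the tissues of the silique were sparsely named. Of 6 endosperm markers 2 were named, with AGL62 at -0.41 and -0.91 and AGL38 at -0.79 and 0.0011 on replicates 1 and 2. Of 6 seed coat markers 2 were named, AT3G50990 (PRX36) at 0.43 and 0.42 and BAN as above. Of 9 fruit wall markers 4 were named, with ALC at 0.40 and 0.43 and PSAN at -0.13 and -0.13, while RCA and LHCB4.1 had opposite signs on the arrays, and of 7 embryo markers 0 were named. Of the 8 named markers, AGL62 and PSAN were negative on both arrays, PRX36 and ALC positive on both, and the other 4 opposite in sign. In whole fruits a change in the share of a tissue and a change in RNA per cell cannot be told apart, and the part of tissue balance in the UGT ratios was not tested.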

How the data were processed

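The data are 2 two-colour arrays of 21500 probes. The authors deposited 1 log ratio per probe and array. Per the submitters' processing notes these came from Agilent Feature Extraction 7.1.1. The sources used here do not give background correction or dye normalization. The deposited numbers were taken as log10 ratios from their form (signed, 3 significant digits, exact zeros) and converted to log2. Their medians as deposited were 0.0481 and 0.00672 on the log10 scale, so they are not centred. Base and direction of the ratio stay unknown.

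Probe names came from a platform annotation of 2007, updated by gene ID to the TAIR10.1 gene table. Of all probes 8893 had 1 name, 39 had several and 12568 were unnamed here, and 8875 of the named ones matched by gene ID. That table served for names and gene order alone. Probes of a gene were averaged, and 21426 rows were tested by limma 3.58.1 under R 4.3.3 for a mean ratio other than 0 (intercept only, eBayes, two-sided, Benjamini-Hochberg). The test was also run on simulated data with no array offset and a spread fitted without exact zeros. That setting differs from these arrays, so the simulation does not vouch for the test on them. Counts past 1.5-fold and 2-fold with 1 sign on both arrays use no p-value.

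UGT genes and all lists were chosen with earlier results of these data known. Genes given with both values are the 12 with the largest smaller absolute ratio of 1 sign, the furthest in each family, those of opposite signs more than 1 apart, and from each other list the 2 with the largest smaller absolute ratio of 1 sign; the remaining UGT genes are given by value or range. Alternatives were centring, scaling, zeros, moderation, base, members and leaving out each array. The number of arrays limits the precision.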

Additional observations from a re-analysis of the deposited data

How the results depend on the processing

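No paired analysis was possible because the arrays form 1 group of ratios and no other group shares their replicate numbers. The count of 0 UGT genes past limma held with centring, scaling, exact zeros left out (with or without centring), each probe alone, log2 values, robust eBayes, no moderation and an adjusted p under 0.10. Leaving out exact zeros moved the calls over all rows to 55 of 20761, and centring the arrays as well returned them to 0. The UGT count was 1, UGT72E1, when exact zeros were left out and the limit was 0.10, a combination chosen after seeing the data. That setting called 116 of 20761 rows (0.559%), and 0 once the arrays were also centred. For 1.5-fold, the 2 genes became 0 if the values are log2, and with 1 array left the count ran from 3 to 7, where no agreement of sign is required. The count of 1 past 2-fold became 2 with centring, with zeros kept or left out, became 0 if the values are log2, and ran from 1 to 5 with 1 array left. The median of 0.04 moved to -0.0483 with centring, -0.0600 with scaling and -0.0412 with centring and no exact zeros, by construction since the array medians are above 0, and ran from 0.0290 to 0.122 on single arrays. The range of family medians, 0.32, was 0.10 if the values are log2, ran from 0.24 to 0.37 on single arrays and was 0.38 with families of at least 2 genes. Adding the 4 genes known as UGT only by a synonym left 2 genes past 1.5-fold and gave a median of 0.06.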

Other observations

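The 4 genes whose gene table symbol is not a UGT name but whose synonym is one lay near equal. GT72B1 (UGT72B1), which glucosylates chlorinated anilines and phenols and takes part in stem lignification, was at 0.13 on replicate 1 and 0.05 on replicate 2 on the log2 scale. Its ratio was thus small on both arrays, as in UGT72E2 and UGT72E3. SGT (UGT80A2), the sterol glucosyltransferase gene paired with UGT80B1, was at 0.48 and 0.10. UF3GT (UGT79B1), an anthocyanin xylosyltransferase gene, was at 0.03 and -0.03, and AT5G54010 (UGT79B6), a glycosyltransferase gene of pollen flavonols, was at 0.37 and -0.12. None of the 4 was past 1.5-fold on either array.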
